A study of Mus musculus with 10 samples.

Results

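The 9 genes described here control how fibrin clots are started and dissolved. They are the plasminogen activators Plat and Plau, the Plau receptor Plaur, the serpin Serpine2, the coagulation starter F3, its inhibitors Tfpi and Tfpi2, and the protein C cofactors Thbd and Procr. They were chosen by gene name, but with earlier results of these data known, so the choice was not blind to the data. They are 9 of the 55401 genes in the tables. All 9 had a value above 0 in every library.

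RNA from the left ventricle (LV) was sequenced in 5 nAAC mice and 5 sham mice, with 1 library per mouse and mice numbered 1 to 5 in each group. In nAAC mice the ascending aorta had been constricted surgically in the newborn, so the LV had to pump against a raised pressure, and sham mice had been operated on without the constriction. All 10 mice were wild type (WT), were nursed by their mothers and were 4 weeks old when the LV was taken. Whole LV tissue was used, so a higher value can come from more cells of a type or from more RNA per cell, and these cannot be told apart here.

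Plat and Plau are proteases that cut plasminogen into plasmin, the enzyme that digests fibrin, and Plaur holds Plau at the cell surface. Serpine2, also called protease nexin-1, traps thrombin and both plasminogen activators. F3, known as tissue factor, binds factor VII and starts coagulation, and it is made by cells around vessels and by cardiomyocytes. Tfpi blocks the complex of F3 and factor VII, while Thbd and Procr on endothelial cells let thrombin activate protein C, which shuts coagulation down.

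Expression is given as FPKM, the fragments per kilobase of transcript scaled to the depth of the library, which was deposited as a normalized value. The test covered the 11867 genes whose FPKM averaged 1 or more over the 10 libraries. The test was limma on log2(FPKM + 1), with p values adjusted over all genes tested by the Benjamini-Hochberg method. A gene rose or fell where its adjusted p was below 0.05, and it was a differentially expressed gene (DEG) where the log2 fold change (FC) also exceeded 1 in size. Fold changes on this scale are smaller than the ratio of the FPKM means for genes of low level.

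The libraries were alike in size apart from nAAC mouse 1, the largest at 6.82 gigabases, with nAAC mouse 5 next at 5.26. The estimated aligned sequence was between 4.86 and 6.82 gigabases in nAAC mice and between 5.06 and 5.24 in sham mice, and between 11889 and 12455 genes reached 1 FPKM in nAAC mice against 11182 to 11721 in sham mice. Genes of the mitochondrial genome took 36.1 ± 2.60% of TPM in nAAC mice and 43.4 ± 7.05% in sham mice (SD, n = 5). Sham mouse 4 stood apart in its dependence on transcript length (Spearman rho of -0.659, against -0.32 to 0.466 in the other libraries).

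Of the 9 genes, 7 were tested, and Tfpi2 and Procr lay under the filter. Plau and Plaur passed the filter through their nAAC values, since their sham means were under 1, so their place among the upward calls is not independent of the filter. Serpine2, Plat, Plau, Plaur and Thbd rose in nAAC mice, Tfpi fell and F3 did not pass the test. Over all genes tested, 31.7% passed, 27.1% upward and 4.6% downward, so upward calls were common. DEGs made up 5.91% of all genes tested, 5.01% upward and 0.893% downward. Tfpi was the only DEG among the 9. The median log2 FC over all genes tested was 0.22.

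**Figure D1:**
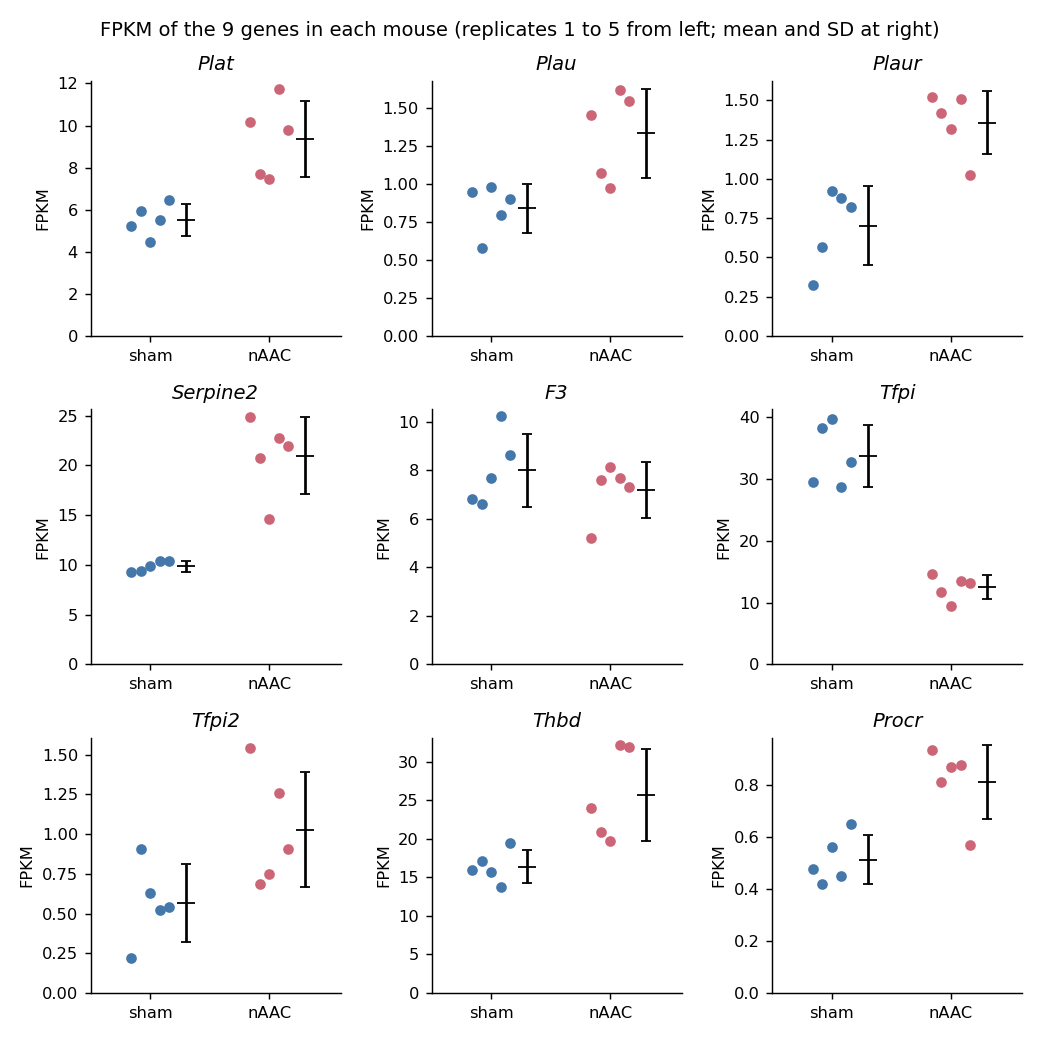
FPKM of each of the 9 genes in every library, with 1 panel per gene, FPKM on the vertical axis and the nAAC and sham groups side by side. Points are single mice and bars are the group mean with the SD (n = 5). Tfpi is the gene whose nAAC values all lie below the sham values, and Serpine2, Plat, Plaur and Thbd are those whose nAAC values all lie above.

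Plat, the tissue-type plasminogen activator, was the more abundant of the plasminogen activators in both groups. Its gene (ENSMUSG00000031538) lies at chr8:22757727-22782844 on the plus strand of GRCm38. Plat FPKM in nAAC mice 1 to 5 was 10.2, 7.69, 7.46, 11.8 and 9.77. In sham mice 1 to 5 it was 5.20, 5.93, 4.45, 5.53 and 6.48. Every nAAC value lay above every sham value, and nAAC mouse 4 was the highest. The mean was 9.37 ± 1.80 in nAAC mice and 5.52 ± 0.764 in sham mice (SD, n = 5), a 1.70-fold difference. Plat rose with a log2 FC of 0.66 (SE 0.138, limma adjusted p = 0.00298). By a two-sided exact permutation test on FPKM, p was 0.0079, the smallest that 5 against 5 mice allow.

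Plau, the urokinase-type plasminogen activator, was far lower than Plat. It is encoded at chr14:20836660-20843385 on the plus strand (ENSMUSG00000021822). Plau FPKM was 1.45, 1.07, 0.971, 1.62 and 1.55 in nAAC mice 1 to 5. The sham values were 0.946, 0.580, 0.982, 0.796 and 0.898. The groups overlapped, since nAAC mouse 3 was just below sham mouse 3. Mean FPKM was 1.33 ± 0.293 against 0.840 ± 0.162 (SD, n = 5). The rise in Plau was a log2 FC of 0.34 (SE 0.117, limma adjusted p = 0.0428), close to the threshold. The call was lost without any of 8 single libraries, namely nAAC mice 1, 4 and 5 and each sham mouse, with an adjusted p of up to 0.103, and in the fit without a filter (limma adjusted p = 0.0771).

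Plaur, the membrane-anchored receptor that gathers Plau on the cell surface, was at a level like that of Plau. Its gene (ENSMUSG00000046223) is at chr7:24462484-24475968 on the plus strand. The Plaur FPKM values in nAAC mice 1 to 5 were 1.52, 1.42, 1.32, 1.51 and 1.03. Those in sham mice were 0.326, 0.564, 0.924, 0.880 and 0.822. The groups did not overlap, with sham mouse 1 the lowest of all and nAAC mouse 5 only just above the highest sham mouse. The group means were 1.36 ± 0.202 and 0.703 ± 0.253 (SD, n = 5), or 1.93-fold. Plaur rose by a log2 FC of 0.48 (SE 0.125, limma adjusted p = 0.0113). In the fit without a filter, which does not depend on its nAAC values to admit it, the limma adjusted p was 0.0279.

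Serpine2 had the largest increase of the 7 tested members. It lies at chr1:79794197-79861180 on the minus strand (ENSMUSG00000026249). Serpine2 FPKM in nAAC mice 1 to 5 was 24.8, 20.7, 14.6, 22.7 and 22.0. In sham mice it was 9.27, 9.34, 9.94, 10.4 and 10.4. The sham mice were tightly grouped, the nAAC mice were spread, and even nAAC mouse 3, the lowest, stood clear of the sham range. The mean was 20.97 ± 3.86 against 9.88 ± 0.563 (SD, n = 5), which is 2.12-fold. The log2 FC was 0.99 (SE 0.136, limma adjusted p = 1.40e-04), just under the fold limit for a DEG. Without nAAC mouse 3, sham mouse 4 or sham mouse 5 it was 1.11, 1.01 and 1.01, past that limit. Serpine2 ranked 615 by size of increase among the 11867 genes tested.

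Thbd, thrombomodulin, is the endothelial receptor that turns thrombin from a clotting enzyme into an activator of protein C. It has a single annotated transcript at chr2:148404466-148408188 on the minus strand (ENSMUSG00000074743). Thbd FPKM was 24.1, 20.9, 19.7, 32.2 and 31.9 in nAAC mice 1 to 5. The sham mice had 15.9, 17.1, 15.7, 13.8 and 19.5. The groups did not overlap, but nAAC mouse 3 and sham mouse 5 nearly met, while nAAC mice 4 and 5 stood highest. Group means were 25.7 ± 5.96 and 16.4 ± 2.10 (SD, n = 5), a 1.57-fold difference. Thbd rose with a log2 FC of 0.60 (SE 0.158, limma adjusted p = 0.0115).

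Procr, the endothelial protein C receptor, was the lowest of the 9 genes in both groups and lay under the filter. It is found at chr2:155751117-155755471 on the plus strand (ENSMUSG00000027611). Procr FPKM was 0.934, 0.811, 0.868, 0.879 and 0.568 in nAAC mice and 0.477, 0.421, 0.564, 0.452 and 0.650 in sham mice. The groups overlapped because nAAC mouse 5 fell within the sham range. With means of 0.812 ± 0.143 and 0.513 ± 0.0934 (SD, n = 5), the two-sided exact permutation test gave p = 0.0159. In the fit without a filter, Procr had a log2 FC of 0.26 and a limma adjusted p of 0.0518.

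F3 had overlapping values in the groups and did not pass the test. The gene (ENSMUSG00000028128) is at chr3:121723537-121735048 on the plus strand. F3 FPKM in nAAC mice 1 to 5 was 5.22, 7.61, 8.15, 7.67 and 7.31. In sham mice it was 6.80, 6.60, 7.67, 10.2 and 8.62. The groups overlapped over most of their range, with nAAC mouse 1 the lowest and sham mouse 4 the highest. Mean F3 was 7.19 ± 1.14 against 7.99 ± 1.49 (SD, n = 5), with a log2 FC of -0.13 (SE 0.142, limma adjusted p = 0.497) and p = 0.389 by the two-sided exact permutation test. Sham mouse 4 is the library that stood apart in its transcript length trend, and without it the log2 FC was -0.05 (limma adjusted p = 0.794).

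Tfpi was the one member that fell in the FPKM as deposited. It lies at chr2:84432855-84476775 on the minus strand (ENSMUSG00000027082), and its value pools 10 annotated transcripts, so isoforms were not separated. Tfpi FPKM in nAAC mice 1 to 5 was 14.6, 11.7, 9.51, 13.4 and 13.2. The sham mice had 29.4, 38.2, 39.7, 28.8 and 32.8. Every nAAC mouse was far below every sham mouse. The mean was 12.5 ± 1.95 in nAAC mice and 33.8 ± 5.0 in sham mice (SD, n = 5), so Tfpi was 2.71-fold lower. Tfpi fell by 1.37 on the log2 scale (SE 0.140, limma adjusted p = 1.24e-05) and was number 60 among all genes tested by size of decrease.

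Tfpi2, a related inhibitor of the same domain family that acts on plasmin and other proteases of the pericellular matrix, was close to the detection filter and below it on average. Its locus is chr6:3962595-3988919 on the minus strand (ENSMUSG00000029664). Tfpi2 FPKM was 1.54, 0.684, 0.751, 1.26 and 0.907 in nAAC mice and 0.221, 0.908, 0.626, 0.522 and 0.540 in sham mice. The groups overlapped, with sham mouse 2 above nAAC mice 2, 3 and 5. The means were 1.03 ± 0.362 and 0.564 ± 0.246 (SD, n = 5), and the two-sided exact permutation test gave p = 0.0476. In the fit without a filter its log2 FC was 0.37 with a limma adjusted p of 0.143.

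FPKM is a level per transcript length, so the 9 genes can also be ordered by it. In sham mice Tfpi was the highest, followed by Thbd, and the ranges of these genes did not meet. Serpine2 and F3 came next with ranges that overlapped, then Plat, and the last 4 were Plau, Plaur, Tfpi2 and Procr, whose ranges overlapped from each to the next. In nAAC mice Thbd and Serpine2 led with overlapping ranges, Tfpi came next with a range that overlapped that of Plat, which overlapped that of F3, while Tfpi lay above F3 in full. The same 4 genes came last. Tfpi thus ranked 1 of the 9 in sham mice and 3 in nAAC mice. The groups did not overlap for Serpine2, Plat, Plaur and Thbd upward and for Tfpi downward. Of all genes tested, 22.3% had groups that did not overlap, 18.9% with nAAC above sham and 3.46% with nAAC below.

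The shift of all genes bears on the smaller changes. The median of 0.22 was -0.00 after median-ratio scaling, which sets the typical gene to the same level in each library. After that scaling, Serpine2 (log2 FC 0.73, limma adjusted p = 0.00112) and Plat (0.41, limma adjusted p = 0.0201) still passed upward, and Tfpi (-1.63, limma adjusted p = 6.31e-06) still passed downward. F3 then passed downward (-0.38, limma adjusted p = 0.0368). Thbd (0.33), Plaur (0.35) and Plau (0.19) no longer passed, with limma adjusted p values of 0.0966, 0.0601 and 0.251. Counting Plau and Plaur, the members' split was thus 5 upward and 1 downward as deposited, and 2 upward and 2 downward after scaling, against 13.2% upward and 12.1% downward over all genes tested. Among all DEGs the upward share went from 84.9% to 64.2%.

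**Figure D2:**
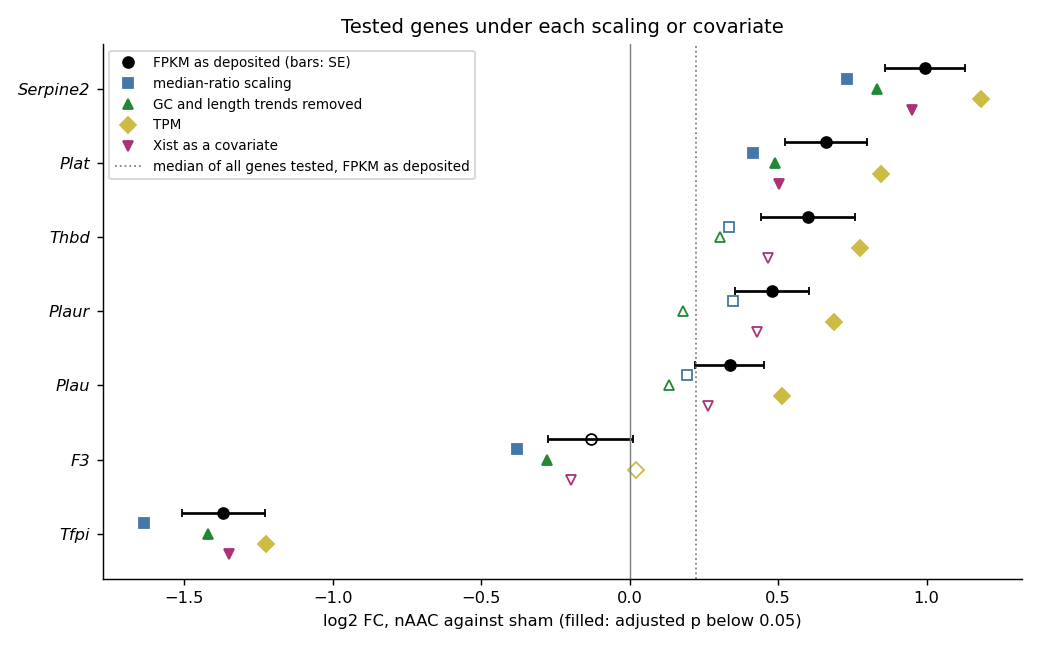
Log2 FC of the 7 tested members, nAAC against sham, under 5 ways of processing. The horizontal axis is the log2 FC on the scale of log2(FPKM + 1), each symbol is 1 way of processing, bars are the SE for FPKM as deposited, the dotted line is the median of all genes tested, and filled and open points are calls past and not past an adjusted p of 0.05. Serpine2, Plat and Tfpi keep their call in all 5, while F3 passes downward in 2 of them.

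Removing the trend of each library on GC content and transcript length gave the same calls as median-ratio scaling, with F3 lower (log2 FC -0.28, limma adjusted p = 0.0404), at a background of 14.2% upward and 15.9% downward. This step also takes out the level of each library, and the median log2 FC over all genes tested was then -0.019. The 2 ways thus share the removal of the shift between groups, and their like calls are not separate evidence on GC content or length. Without sham mouse 4, Serpine2 had a log2 FC of 1.01, Plat of 0.66, Thbd of 0.54 and Tfpi of -1.42, all with the call kept. Xist, which is expressed in female cells, was above 1 FPKM in 4 nAAC libraries and 2 sham libraries, so the groups were not matched for sex. With Xist as a covariate, Serpine2 (0.95, limma adjusted p = 0.0023) and Tfpi (-1.35, limma adjusted p = 2.59e-04) passed. Plat (0.50, limma adjusted p = 0.0429) passed close to the threshold. Thbd (0.47, limma adjusted p = 0.115), Plaur (0.43, limma adjusted p = 0.081) and Plau (0.26, limma adjusted p = 0.238) did not pass. With this covariate 13.4% of all genes tested passed upward and 3.29% downward.

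Ratios within a library do not depend on the scaling between libraries, so 4 pairs of members were compared in this way. They were taken as log2 of the ratio of FPKM + 0.1. Such a ratio does not remove a library's trend with transcript length. F3 and its inhibitor Tfpi had a log2 ratio of -1.47, -0.61, -0.22, -0.80 and -0.84 in nAAC mice 1 to 5. In sham mice the log2 ratio of F3 to Tfpi was -2.10, -2.51, -2.36, -1.48 and -1.91. All nAAC values lay above all sham values, but nAAC mouse 1 and sham mouse 4 almost touched. The longest transcript has 1872 bases for F3 and 3968 for Tfpi. Within each group the ratio was lower the higher the library's rho with transcript length. That rho went from 0.466 in sham mouse 2 to -0.659 in sham mouse 4, and from 0.31 in nAAC mouse 1 to -0.32 in nAAC mouse 3. The part of this trend in the ratio was not tested. The means were -0.79 ± 0.451 and -2.07 ± 0.404 (SD, n = 5), a difference of 1.28 on the log2 scale. The two-sided exact permutation test gave p = 0.0079 and, adjusted over the 4 pairs, p = 0.0317. Tfpi was therefore more abundant than F3 in every library of both groups, by a smaller margin in nAAC mice.

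The other pairs did not pass. For Plat and its inhibitor Serpine2 the log2 ratio was -1.15 ± 0.204 in nAAC mice and -0.84 ± 0.199 in sham mice (SD, n = 5), with overlapping groups. The difference of -0.31 had p = 0.0397 by the two-sided exact permutation test and an adjusted p of 0.0794. For Plau and Plaur the mean log2 ratio was -0.04 ± 0.392 against 0.28 ± 0.576, with sham mouse 1 at 1.30 as the highest (exact permutation adjusted p = 0.561). For Thbd and Procr it was 4.81 ± 0.502 against 4.75 ± 0.181 (exact permutation adjusted p = 0.857). A p of this size does not show that these ratios were equal.

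**Figure D3:**
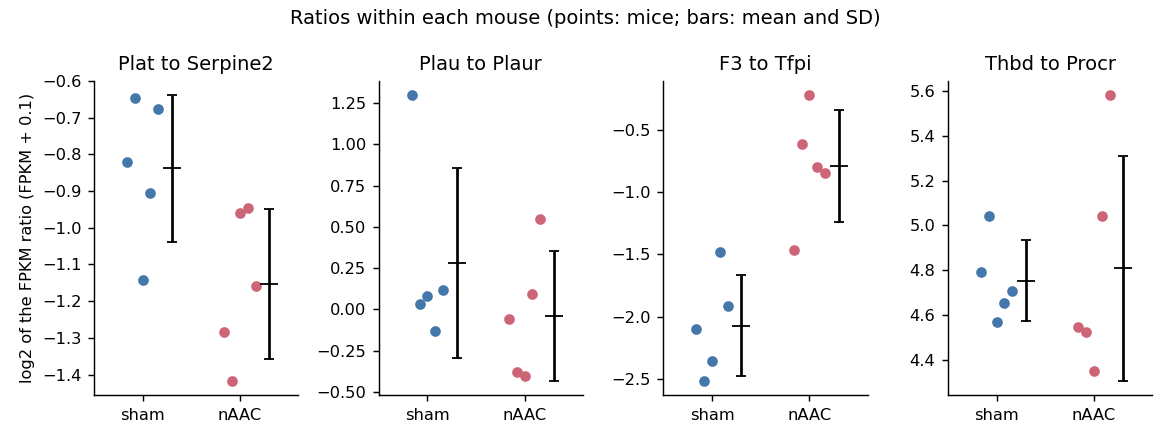
Log2 ratio of 4 member pairs in every library, with 1 panel per pair, the log2 ratio of FPKM + 0.1 on the vertical axis, and the nAAC and sham mice side by side. Points are single mice and bars are the mean with the SD (n = 5). F3 to Tfpi is the pair whose groups do not overlap, between -1.47 and -0.22 in nAAC mice and between -2.51 and -1.48 in sham mice.

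Promoter windows of the 250 bases before the transcription start were taken from RefSeq on GRCm38.p6, and 6 of the 9 genes had 1 or more. Plat, Plau and Thbd had none and could not be searched. Serpine2 and Tfpi, the members with the largest increase and the largest decrease, had windows of very different makeup. Their windows are printed 5′ to 3′ on the gene's strand, with each CG dinucleotide in capitals. The Serpine2 window is chr1:79858666-79858915, and the Tfpi windows are chr2:84476760-84477009 and chr2:84474175-84474424, all on the minus strand.
Serpine2: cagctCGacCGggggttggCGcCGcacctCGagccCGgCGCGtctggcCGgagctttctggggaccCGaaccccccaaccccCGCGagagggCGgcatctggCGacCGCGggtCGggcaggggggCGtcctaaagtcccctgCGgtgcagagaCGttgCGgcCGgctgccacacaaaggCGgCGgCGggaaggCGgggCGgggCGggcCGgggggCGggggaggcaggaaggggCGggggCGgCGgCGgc
Tfpi window 1: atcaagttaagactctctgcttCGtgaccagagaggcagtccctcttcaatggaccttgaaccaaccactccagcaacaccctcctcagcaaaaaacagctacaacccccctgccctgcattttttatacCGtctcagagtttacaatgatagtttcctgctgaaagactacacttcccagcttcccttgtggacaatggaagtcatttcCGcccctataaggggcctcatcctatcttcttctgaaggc
Tfpi window 2: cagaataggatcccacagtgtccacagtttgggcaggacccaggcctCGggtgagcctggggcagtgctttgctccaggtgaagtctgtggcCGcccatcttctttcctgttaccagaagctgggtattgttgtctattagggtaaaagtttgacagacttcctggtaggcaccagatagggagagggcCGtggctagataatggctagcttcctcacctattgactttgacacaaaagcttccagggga
The Serpine2 window held 34 CG dinucleotides and had a GC content of 78.8%. Only 3.53% of the 32851 RefSeq windows held as many or more. Each Tfpi window held 3, at a GC content of 48.4% and 52.8%, and 37.8% of windows held 3 or fewer. The median over all windows was 6. Among the other members, the F3 window held 24 CG dinucleotides, Procr 13, Plaur 6, and the 3 Tfpi2 windows 2, 1 and 11. F3 did not pass the test and Plaur rose. A link between CG content and the direction of change was not tested.

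The windows were also searched on both strands for GCGTG, the core that the aryl hydrocarbon receptor binds, and for TGANTCA. The latter is a loose form of the AP-1 site, in which N is any base. GCGTG was in 28.2% of all windows, and among the members it was found in 1 of the 3 windows of Tfpi2, where it overlapped a TGANTCA match. TGANTCA was in 6.75% of all windows. It was found in the windows of Plaur and Procr, in that same Tfpi2 window, and in F3, which alone held 2 matches. These lie close together in the stretch chr3:121723381-121723418 on the plus strand, at 146 and 135 bases before the start, and are shown in capitals because no other member's window held a pair.
F3: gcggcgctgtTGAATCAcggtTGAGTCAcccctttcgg
Serpine2 and Tfpi had neither sequence in their windows. A match is a run of letters and not a measured binding site, and binding was not measured here.

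The other genes of clotting and fibrinolysis give the setting for the 9 members. A list of 36 such genes held 11 that were tested, of which 8 rose and 3 did not pass in limma, and 4 were DEGs, at a background of 27.1% upward calls and 5.01% upward DEGs over all genes tested. All 11 had a log2 FC above 0 on the deposited scale, but Pros1 was at -0.01 after median-ratio scaling. Those 11 had a median log2 FC of 0.74, against 0.22 for all genes tested. After median-ratio scaling their median was 0.49 and 6 rose, at a background of 13.2% upward calls over all genes tested. Plg, which encodes plasminogen, and Proc, which encodes protein C, were listed at 0 in every library, as were F11, F13b and Serpina10. These are proteins that the liver secretes into the blood, and the hepatocyte markers Alb, Apoa1 and Ttr summed to at most 1.41 FPKM in any library.

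In the fibrinolysis sub-list, 4 of 5 tested genes rose and 3 were DEGs, at a background of 27.1% upward calls and 5.01% upward DEGs. After median-ratio scaling 3 of the 5 rose, at a background of 13.2% upward calls. After removal of the GC content and length trends all 5 rose, at a background of 14.2% upward calls. Anxa2 and S100a10 form a cell surface complex that binds plasminogen and Plat. Anxa2 was at 69.6 ± 2.12 FPKM in nAAC mice and 26.0 ± 4.04 in sham mice (log2 FC 1.40, limma adjusted p = 3.26e-06), and S100a10 was at 59.6 ± 7.41 and 38.0 ± 6.36 (0.65, limma adjusted p = 0.00378). The call for S100a10 was lost after median-ratio scaling (0.37, limma adjusted p = 0.0629). Lrp1, the receptor that takes up complexes of proteases with serpins, rose from 5.25 ± 0.992 to 19.1 ± 2.93 FPKM (1.69, limma adjusted p = 2.63e-06). Mrc2, a collagen uptake receptor that partners with Plaur, rose from 2.10 ± 0.437 to 9.77 ± 1.90 FPKM (1.79, limma adjusted p = 1.55e-06). Plgrkt, a plasminogen receptor, had 15.5 ± 3.64 and 11.2 ± 1.94 FPKM and did not pass (0.42, limma adjusted p = 0.0719). Its call depended on the processing, with a limma adjusted p of 0.0158 in TPM and 0.522 after median-ratio scaling.

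In the remaining sub-lists few genes were tested. Vwf, the adhesion protein that binds platelets to injured vessels, rose from 5.68 ± 0.327 to 10.3 ± 1.86 FPKM (log2 FC 0.74, limma adjusted p = 6.14e-04), and this call was lost after the GC content and length trends were removed (0.29, limma adjusted p = 0.118). F13a1, the fibrin cross-linking enzyme, did not pass (0.49, limma adjusted p = 0.215), and F8 was under the filter at 0.204 and 0.241 FPKM. Pros1, the cofactor of activated protein C and of Tfpi, did not pass either (0.24, limma adjusted p = 0.298). The thrombin receptor F2r rose from 8.89 ± 1.28 to 21.8 ± 4.78 FPKM (1.19, limma adjusted p = 7.28e-05). Vkorc1 (0.85, limma adjusted p = 9.39e-04) and Ggcx (0.42, limma adjusted p = 0.0104), the enzymes that let clotting factors be carboxylated, rose as well. The call for Ggcx was lost after median-ratio scaling (0.19, limma adjusted p = 0.197), after trend removal (0.13, limma adjusted p = 0.328) and with Xist as a covariate (0.39, limma adjusted p = 0.0684).

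Among 12 other serpins, 9 were tested, 6 rose and 3 were DEGs, at a background of 27.1% upward calls and 5.01% upward DEGs. All 9 had a log2 FC above 0 in the FPKM as deposited. After median-ratio scaling 5 rose, 2 were DEGs and Serpinb1a was at -0.04. The background was then 13.2% upward calls, and 371 of the 11867 genes tested were upward DEGs. Serpina3n went from 1.68 ± 0.928 to 30.9 ± 19.9 FPKM (log2 FC 3.47, limma adjusted p = 7.76e-06), and Serpinf1, an antiangiogenic serpin without protease inhibition, went from 10.2 ± 1.76 to 41.3 ± 8.82 (1.91, limma adjusted p = 2.77e-06). Serpinh1, the collagen chaperone, went from 48.1 ± 6.74 to 116 ± 22.0 FPKM (1.24, limma adjusted p = 9.17e-05), and its log2 FC was 0.96 after median-ratio scaling, under the limit for a DEG. Serping1 (0.93) and Serpinb6a (0.69) also rose. Serpine2, at 0.99, thus had a log2 FC above that of Serping1 and below that of these 3 serpins, without a test of the difference between genes.

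**Figure D4:**
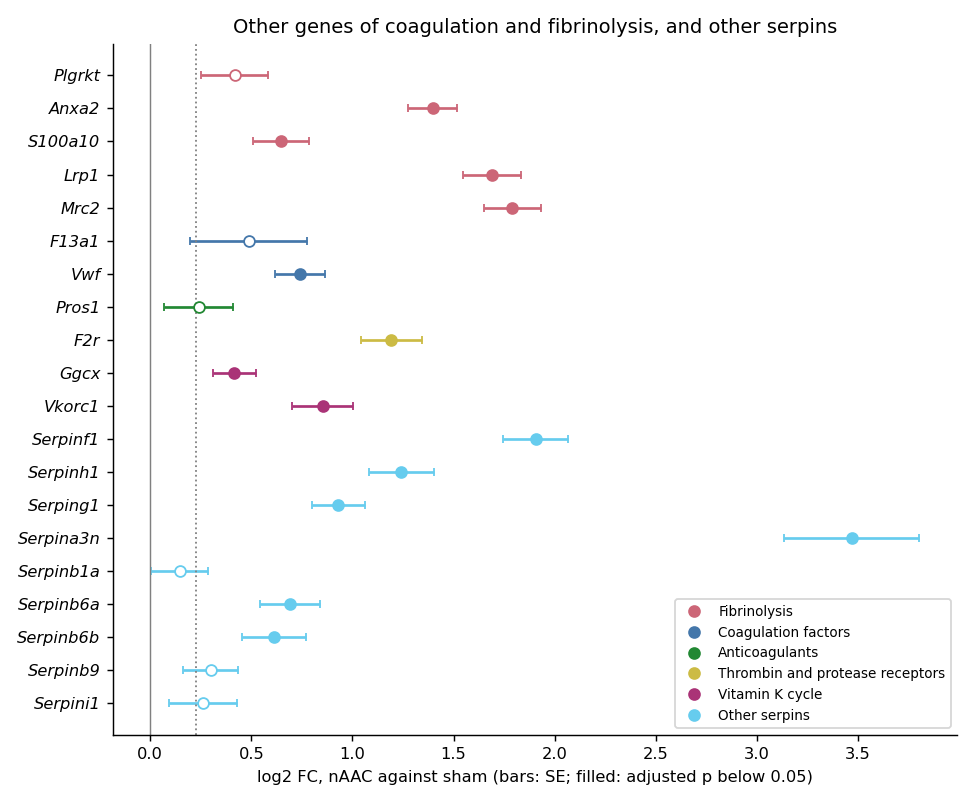
Log2 FC, nAAC against sham on the log2(FPKM + 1) scale, of the other tested genes of clotting, fibrinolysis and the serpin family, 1 gene per line and colored by role. Filled and open points are calls past and not past an adjusted p of 0.05, bars are the SE, and the dotted line is the median of all genes tested, 0.22. In the FPKM as deposited, all 20 genes lie above 0, from 0.15 for Serpinb1a to 3.47 for Serpina3n.

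The members were read beside endothelial markers, whether or not they are endothelial genes. Of 9 endothelial markers, 1 rose (Kdr), at a background of 27.1% upward calls over all genes tested. Their summed FPKM was between 251 and 404 in nAAC mice and between 215 and 330 in sham mice, with overlapping groups. Per 100 FPKM of these markers, Tfpi was between 3.33 and 5.21 in nAAC mice and between 9.94 and 17.9 in sham mice. Thbd was between 7.56 and 9.28 against 5.36 and 7.39, Plat between 2.84 and 3.63 against 1.96 and 2.42, and Serpine2 between 5.61 and 8.87 against 3.16 and 4.48. These 4 genes kept groups that did not overlap on this scale, whereas Plaur and the other 4 genes overlapped. Among those, the endothelial receptor Procr was between 0.165 and 0.333 in nAAC mice and between 0.169 and 0.254 in sham mice. The share of all genes without overlap on this scale was not counted, so the lack of overlap cannot be set against a background. This scale was chosen after the values were seen and carries no test.

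Markers of other cells also moved, at a background of 27.1% upward calls over all genes tested. Of 6 fibroblast markers 5 rose. Their sum was between 481 and 864 FPKM in nAAC mice and between 344 and 371 in sham mice. In nAAC and sham mice, mean FPKM was 171 and 11.4 for Postn, 45.9 and 10.1 for Col1a1, and 421 and 296 for Dcn. Tcf21 rose as well (limma adjusted p = 4.28e-04). Dcn and Lum were near the threshold (limma adjusted p = 0.0459 and 0.0464), and Pdgfra did not pass (limma adjusted p = 0.240). Of 6 mural cell markers 5 rose (Pdgfrb, Cspg4, Acta2, Myh11 and Tagln), with sums of 257 to 373 and 162 to 271. Rgs5, the largest part of these sums, did not pass (log2 FC -0.002, limma adjusted p = 0.994). It was at 163 ± 39.0 FPKM in nAAC mice and 163 ± 40.0 in sham mice (SD, n = 5). Of 6 macrophage and leukocyte markers 1 rose (C1qa), with sums of 112 to 219 and 74.5 to 166. Of 5 platelet markers only Pf4 was tested, which did not pass (limma adjusted p = 0.298), and the platelet sums overlapped at 14.4 to 25.5 and 11.6 to 21.2. The part of these cells in the changes of Serpine2, Plat, Plau, Plaur, Thbd and Tfpi was not tested. Of 5 endocardial and venous markers 2 rose (Npr3 and Vwf), with sums of 34.8 to 45.6 and 27.9 to 39.6.

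Cardiomyocyte markers moved in both directions, at a background of 27.1% upward and 4.6% downward calls over all genes tested. Of 8, Tnni3 (log2 FC -0.82), Pln (-0.86) and Atp2a2 (-0.87) fell and Actc1 (0.60) rose, and the sums overlapped at 13271 to 20637 FPKM in nAAC mice and 16435 to 27549 in sham mice. No marker of the 3 atrial genes Myl7, Sln and Myl4 passed in limma, with adjusted p values of 0.334 to 0.528 and unadjusted ones of 0.215 to 0.405, and their sum was 2.03 to 227 FPKM in nAAC mice and 3.05 to 44.7 in sham mice, with Myl4 at up to 127.7. The ventricular marker Myl2 was at 2021 FPKM or more in every library. The part of cardiomyocytes or of atrial tissue in the values of Tfpi and F3 was not tested.

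For each tested member, the 2 genes with the most similar profile over the 10 libraries were found by Pearson correlation of log2(FPKM + 1). The difference between groups enters each of these values, and the libraries share their depth and base composition, so no p is given. Serpine2 was closest to Pla2g4a (r = 0.990) and Col8a1 (r = 0.989). Plat was closest to Stab1 (r = 0.993) and Srd5a3 (r = 0.978), and Thbd to Tbc1d2b (r = 0.985) and Papln (r = 0.984). Tfpi was closest to Gpr22 (r = 0.983), an orphan receptor of the heart that fell by 1.97 on the log2 scale, and to Bhlhb9 (r = 0.983). Plau was closest to Fam76a (r = 0.950) and Socs5 (r = 0.938), Plaur to Me2 (r = 0.946) and Rpl3-ps1 (r = 0.938), and F3 to Clybl (r = 0.954) and Sod1 (r = 0.951).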

How the data were processed

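LV RNA of 5 nAAC and 5 sham mice was sequenced from libraries made with the NEBNext Ultra RNA kit. The authors deposited 1 table per mouse, with the mean read coverage over each gene, the FPKM normalized to library depth, and the TPM, which rescales FPKM within a library. The labels name the mouse build mm10; the aligner, the counting tool and the use of strand are not given in the sources used here. Of the genes shared with GENCODE M21, 99.4% had the same coordinates. Rows with the same gene ID were summed. Coverage was used only to estimate depth, and read counts were not recovered, so intervals from counting error cannot be given and a low FPKM carries an unknown error.

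The 11867 genes that averaged 1 FPKM or more entered a limma fit (version 3.58.1, R 4.3.3). Values were log2(FPKM + 1), variances were moderated with a mean trend, and p values were adjusted after Benjamini and Hochberg. A DEG needed an adjusted p under 0.05 as well as a log2 FC over 1 in size. Single genes and ratios were compared by two-sided exact permutation tests in Python 3.11.15 with scipy 1.17.1, for which the smallest p is 0.0079. The tests were tried on simulated data. Groups and replicate numbers came from the sample titles. Same-numbered mice did not deviate together (correlations of -0.316 to 0.192), so the numbers were not treated as pairs. No 2 libraries held identical values.

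All 9 members were named with every value. From the 36 pathway genes and 12 other serpins, every DEG and the 3 genes with the highest mean FPKM of each sub-list were named, with the 2 genes most similar to each tested member. One gene fixed in the pathway list was left out of all its counts and is not reported here. Other named genes were chosen after their values were seen. The members, lists and tests were chosen with earlier results of these data known. The alternatives tried were scaling by median ratio or by upper quartile, rescaling without mitochondrial genes, TPM, no filter, a pseudocount of 0.1, a replicate block, Xist as a covariate, removal of GC content and transcript length trends by loess, and leaving out each library. The level per summed endothelial markers was added after the data were seen.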

Additional observations from a re-analysis of the deposited data

Results flagged for a closer look

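In groups of 5 mice, a single mouse was compared with its group by the gap to its nearest neighbour as a share of the group's range, both on the scale of log2(FPKM + 1) for genes and of the log2 ratio for pairs, with a limit of 0.71. Of 66 groups examined 4 passed, where chance gives about 3.3. F3 in nAAC mouse 1 was the lowest of its group at 5.22 FPKM, next to 7.31, with a share of 0.752. S100a10 in the same mouse was the highest of its group at 72.7 FPKM, next to 58.4, with a share of 0.794. Serpinb6a in nAAC mouse 1 was also the highest, at 77.3 FPKM next to 61.2, with a share of 0.7102. This mouse also had the largest library, at an estimated 6.82 gigabases, and a link to these values was not tested. The log2 ratio of Plau to Plaur in sham mouse 1 was the highest of the sham mice at 1.30, with a share of 0.829. Sham mouse 1 had the lowest Plaur value, 0.326 FPKM.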

How the results depend on the processing

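Serpine2, Plat and Tfpi kept their call in all 19 alternatives, with log2 FC of 0.73 to 1.18, 0.41 to 0.85 and -1.63 to -1.23. The call for Plat was nearest the threshold with Xist as a covariate (limma adjusted p = 0.0429). Under median-ratio scaling, upper-quartile scaling, Xist as a covariate and removal of GC content and length trends, calls were lost for Plau (log2 FC 0.19, 0.20, 0.26 and 0.13), Plaur (0.35, 0.35, 0.43 and 0.18) and Thbd (0.33, 0.35, 0.47 and 0.30), and 3 members passed with Xist. F3 passed downward under median-ratio scaling, upper-quartile scaling and trend removal (-0.38, -0.37 and -0.28) and was at 0.0202 with TPM. Plau also missed the threshold without mitochondrial genes (0.33), without a filter (0.34) and with a pseudocount of 0.1 (0.60). For Tfpi2 and Procr the alternatives used the exact permutation test on log2(FPKM + 1), with an unadjusted p. Under median-ratio scaling that p was not below 0.05 for Tfpi2 (0.25) or Procr (0.15). DEGs numbered 1075 with TPM and 1121 with a pseudocount of 0.1, against 701; Serpine2 then made 2 DEGs among the members. The pathway list had 3 DEGs under either scaling, when all genes tested held 578 by median ratio and 577 by upper quartile. The log2 ratio difference of Thbd to Procr was -0.0304 without a pseudocount. The cause of these changes was not tested.

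The replicate block left every log2 FC as it was, and Plau was the one member whose call changed (0.34, limma adjusted p = 0.0691).

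Leaving out 1 library at a time gave 662 to 784 DEGs, 1 to 2 among the members, 5 to 6 members past the threshold, 4 pathway DEGs in each case and 3 to 4 serpin DEGs. The log2 FC was 0.93 to 1.11 for Serpine2, 0.58 to 0.73 for Plat, 0.28 to 0.40 for Plau, 0.39 to 0.53 for Plaur, -0.19 to -0.04 for F3, 0.52 to 0.69 for Thbd and -1.42 to -1.28 for Tfpi. The difference in log2(FPKM + 1) was 0.29 to 0.45 for Tfpi2 and 0.23 to 0.31 for Procr. For Tfpi2 the unadjusted exact permutation p on this scale was 0.0397 with all libraries. It was not below 0.05 without any 1 of nAAC mice 1, 4 and 5 and sham mice 1, 3, 4 and 5. Ratio differences were -0.39 to -0.25 for Plat to Serpine2 (past the threshold without sham mouse 3), -0.47 to -0.06 for Plau to Plaur, 1.14 to 1.45 for F3 to Tfpi and -0.14 to 0.17 for Thbd to Procr, which was below 0 without nAAC mouse 4 (-0.0014) or nAAC mouse 5 (-0.14). With 4 mice against 5 the adjusted p of F3 to Tfpi rarely can be below 0.0635, so its loss there says nothing about stability.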

Other observations

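Most genes of the pathway list lay under the filter, and a few are given by value. F2rl1, a protease receptor cut by the complex of F3 and factor VII, was at 1.06 ± 0.395 FPKM in nAAC mice and 0.289 ± 0.0750 in sham mice (SD, n = 5). Serpind1, a thrombin inhibitor, was at 0.149 ± 0.0234 and 0.0655 ± 0.0199 FPKM. F2rl3, another protease receptor, was at 0.585 ± 0.279 and 0.543 ± 0.296 FPKM, and Serpinc1, which encodes antithrombin, was at 0.00660 and 0.00648 FPKM on average. F10, chosen after its values were seen, which encodes the factor that Tfpi inhibits, was listed at 0 in every sham library and had a mean of 0.0368 FPKM in nAAC mice. These levels are too low to be read without counts.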
